A study of Mus musculus with 10 samples.

Results

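Non-classical major histocompatibility complex (MHC) class I genes were followed across the cell classes of mouse livers that carried metastases of colorectal cancer. The 8 genes, H2-Q4, H2-Q6, H2-Q7, H2-T22, H2-T23, H2-M3, Cd1d1 and Mr1, were taken by name from the 32285 genes of the deposited count matrices. The choice was made with earlier results of these data known. Cells of 5 gene expression libraries were measured by droplet single-cell RNA sequencing of transcript 3′ ends. The Control group (libraries 11 and 25) came from mice given a control LV, or lentiviral vector. The IFNa group (libraries 18 and 23) came from mice given the IFNa LV. The third group, called the combination here, was 1 library (22) from mice given IFNa together with aCTLA4, an antibody against the T cell inhibitory receptor CTLA-4. All 3 groups share the metastatic liver, and no group without metastases or without a vector is among these libraries. The title of the series speaks of in vivo macrophage engineering; which cells carry the vector, the strain, the age and the number of mice behind each library are not given in the sources used here. The p-values therefore measure the spread between these libraries, which may be technical.

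Classical class I molecules present peptides from inside the cell to CD8 T cells and are highly polymorphic. The non-classical ones are built alike but vary little between individuals, and each serves a narrower set of ligands and receptors. H2-Q7 and its near copy H2-Q6 encode forms of Qa-2, H2-T23 encodes Qa-1, which displays a leader peptide of other class I molecules to the receptor pair CD94 and NKG2A, H2-T22 is bound by some gamma-delta T cell receptors, and H2-M3 presents peptides that start with formyl-methionine. CD1d, from Cd1d1, presents lipids to natural killer T (NKT) cells, and MR1, from Mr1, presents small vitamin B metabolites to mucosal-associated invariant T (MAIT) cells. Type I interferon is known to raise class I genes in many cell types.

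In the GENCODE M21 annotation of GRCm38 all 8 genes are protein-coding. The 6 H2 genes lie in the MHC on chromosome 17. H2-Q4 spans chr17:35379617-35385290, H2-Q6 chr17:35424850-35430055 and H2-Q7 chr17:35439155-35443773, all on the plus strand. H2-T23 spans chr17:36029773-36032855 and H2-T22 chr17:36037128-36042747, both on the minus strand, and H2-M3 spans chr17:37270220-37274484 on the plus strand. Outside the MHC, Cd1d1 spans chr3:86995834-86999441 and Mr1 chr1:155127277-155146814, both on the minus strand.

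The promoters are shown because 5 of the 6 H2 genes, H2-Q4, H2-Q6, H2-Q7, H2-T22 and H2-T23, were called higher under IFNa in several cell classes. They are RefSeq sequences of GRCm38.p6, from 200 to 31 bases before the start used there, 5′ to 3′ on the gene's own strand. They matched 7 of the 8 members, and Cd1d1 had no entry. For H2-T23 that start lies inside the GENCODE span given above, which ends at 36032855, so its window overlaps the gene. The absence of a motif in H2-T23 holds for the searched stretch only.
H2-Q4, chr17:35379417-35379586, plus strand: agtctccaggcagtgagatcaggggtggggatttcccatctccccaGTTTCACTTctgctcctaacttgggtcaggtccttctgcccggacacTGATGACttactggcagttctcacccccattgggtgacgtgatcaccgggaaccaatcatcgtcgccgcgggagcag
H2-Q6, chr17:35424650-35424819, plus strand: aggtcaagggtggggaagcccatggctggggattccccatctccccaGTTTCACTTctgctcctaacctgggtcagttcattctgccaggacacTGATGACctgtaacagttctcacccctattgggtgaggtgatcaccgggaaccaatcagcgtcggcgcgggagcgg
H2-Q7, chr17:35438955-35439124, plus strand: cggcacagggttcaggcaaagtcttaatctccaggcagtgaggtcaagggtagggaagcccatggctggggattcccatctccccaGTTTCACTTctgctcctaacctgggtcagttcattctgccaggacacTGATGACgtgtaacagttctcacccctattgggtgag
H2-T22, chr17:36042773-36042942, minus strand: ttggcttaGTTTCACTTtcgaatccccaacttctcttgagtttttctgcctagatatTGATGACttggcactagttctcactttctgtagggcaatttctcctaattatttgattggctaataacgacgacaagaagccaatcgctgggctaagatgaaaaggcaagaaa
H2-T23, chr17:36032732-36032901, minus strand: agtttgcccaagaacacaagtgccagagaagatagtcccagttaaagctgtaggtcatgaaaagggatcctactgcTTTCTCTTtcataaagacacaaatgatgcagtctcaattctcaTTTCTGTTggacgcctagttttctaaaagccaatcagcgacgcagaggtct
H2-M3, chr17:37270034-37270203, plus strand: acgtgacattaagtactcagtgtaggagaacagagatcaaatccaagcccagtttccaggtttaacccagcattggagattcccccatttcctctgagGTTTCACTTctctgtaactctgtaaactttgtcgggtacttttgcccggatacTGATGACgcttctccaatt
Mr1, chr1:155146845-155147014, minus strand: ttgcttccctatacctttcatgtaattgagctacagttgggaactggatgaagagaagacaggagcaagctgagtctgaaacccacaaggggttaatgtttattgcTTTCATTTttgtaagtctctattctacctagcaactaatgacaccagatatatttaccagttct
Capitals mark matches to 3 short motifs, searched on both strands from 250 bases before to 50 bases after the start of 32544 mouse promoters. The first, GTTTCACTT, belongs to the interferon-stimulated response element of class I promoters. It was present in 0.399% of all promoters (130 of 32544) and in H2-Q4, H2-Q6, H2-Q7, H2-T22 and H2-M3, with its first base 154, 153, 114, 192 and 102 bases before the start. The second, AANNGAAA, is the core bound by interferon regulatory factors (IRFs) and was present in 23.9% of promoters. Its reverse complement lies inside every GTTTCACTT match and stood alone in H2-T23, at 2 places, and in Mr1. The third, TGATGAC, is the core of the X2 box bound by CREB-family factors at MHC promoters. It was present in 3.23% of promoters and in the same 5 H2 genes as the first motif. These 5 are not the 5 called in several classes. H2-M3 has both motifs and was called in 1 class, and H2-T23 has neither and was called in 6. The Y box letters CCAAT, present in 37.4% of promoters, were found in each of the 7 promoters except Mr1 and are not capitalised. A match describes letters in this window and is no measurement of binding.

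The 5 libraries held 10464216 to 69856071 unique molecular identifiers (UMIs) in 863 to 9605 cell barcodes, 28039 in all. After quality filters and removal of 1542 presumed doublets, 26229 cells remained, and 20064 of them passed a marker gate into a named class. The share left without a class was 15.5% to 18.3% in Control 11, Control 25 and IFNa 18, 21.98% in IFNa 23 and 33.4% in the combination library, where those cells had a median of 1730 UMIs. Across libraries 398 cell barcodes occurred in more than 1 library. T cells without a subset marker were set aside, 13 further classes had at least 10 cells in every library, and each is called by the markers that chose it, such as classical monocyte-like. The T cell gates could be set against the paired receptor libraries: a T cell receptor beta chain was found in 80.2% to 97.1% of the gated CD4, CD8 and regulatory T cell-like cells and in at most 4.17% of any other tested class. Hepatocyte-like cells, which make up most of a liver, numbered 1 to 6 per library, and Kupffer-like cells 0 to 6. Clusters named by the same markers put only 35.2% to 73.0% of macrophage-like and 43.5% to 75% of non-classical monocyte-like cells in the same class, and 71.9% or more of the cells of each of the other 11 classes. Library sizes were also uneven, with 209 classical monocyte-like cells in Control 25 and 1666 in Control 11, and with 14 neutrophil-like cells in the combination library.

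UMIs were summed over the cells of a class in a library and are given as CPM, the gene's count per 1000000 UMIs of that sum. Levels of different genes are not compared, because a 3′ count depends on how well each gene is primed. The comparison of IFNa with Control asked where treatment moved each gene. H2-Q4, H2-Q6, H2-Q7 and H2-T22 had their largest estimated changes in both monocyte-like classes and in macrophage-like, neutrophil-like and cDC2-like cells, and were called in each of these. H2-T23 followed this order in part. Its largest estimates were 1.27, 1.13 and 1.00 on the log2 scale, in classical monocyte-like, non-classical monocyte-like and macrophage-like cells. Its estimates in CD4 and CD8 T cell-like and B-like cells, 0.82, 0.89 and 0.83, stood beside 0.81 in neutrophil-like and 0.77 in cDC2-like cells. No member was called in a CD4, CD8 or regulatory T cell-like class. Of 94 tests of a member in a class, 34 were called higher and 0 lower (edgeR's quasi-likelihood test, Benjamini-Hochberg adjusted over all genes of the class, threshold 0.05), and 60 had an unadjusted p under 0.05. Over all genes and classes, 1.39% of tests were called higher and 0.622% lower. In 75 of the 94 tests both IFNa libraries lay above both Control libraries, against 22.4% of all tests. A total of 8 genes in 13 classes would make 104 tests. The 10 not made were 3 of Cd1d1 and 7 of Mr1, whose counts were too low. H2-T22 was called in 8 classes, H2-Q7 in 7, H2-Q4, H2-Q6 and H2-T23 in 6 each, H2-M3 in 1, and Cd1d1 and Mr1 in 0 of 10 and 0 of 6.

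**Figure D1:**
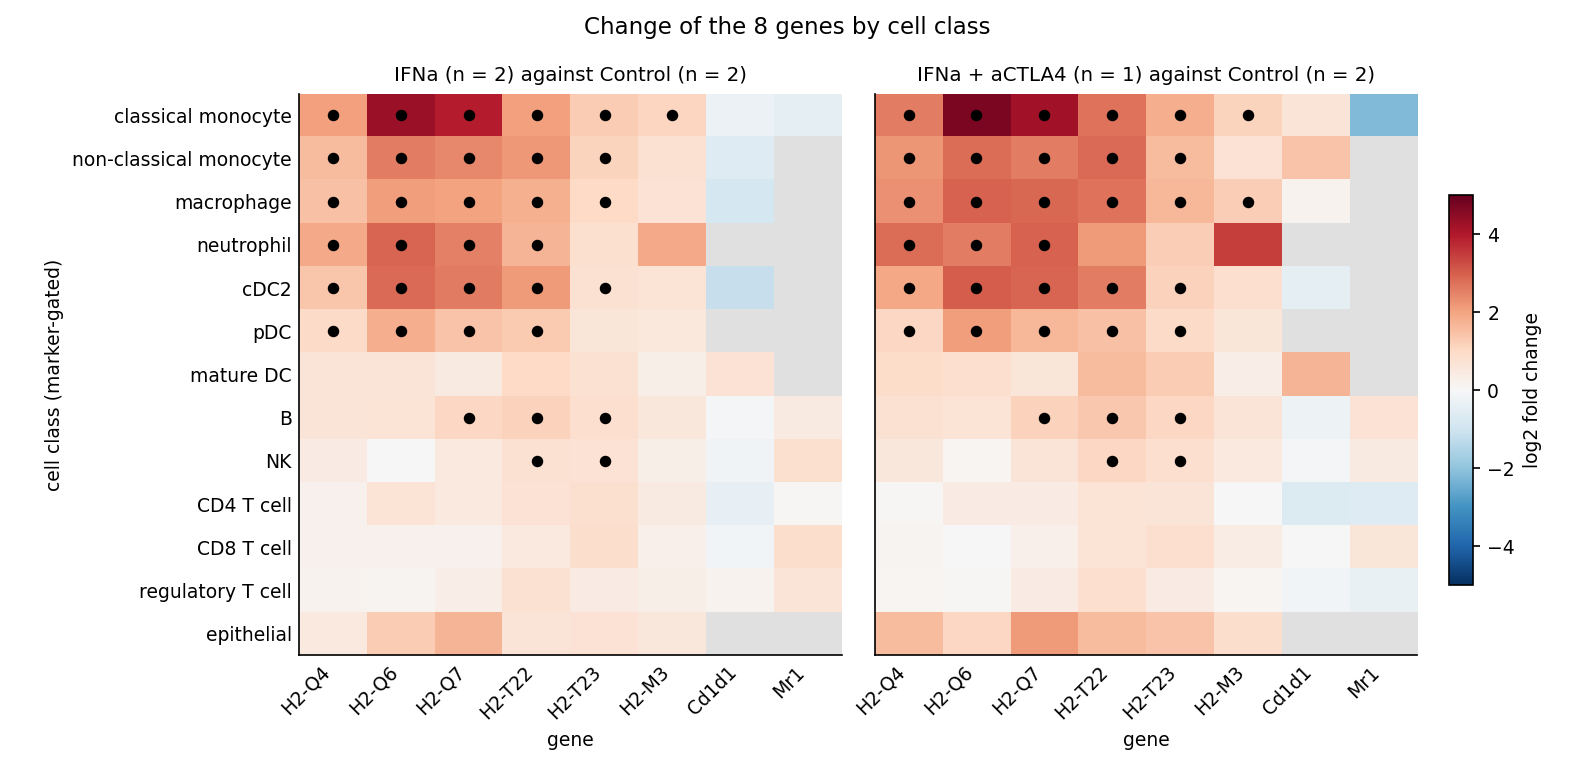
Fitted log2 fold change of each gene (columns) in each marker-gated class (rows), IFNa (n = 2) against Control (n = 2) on the left and the combination (n = 1) against Control on the right; a black dot marks an edgeR adjusted p under 0.05 and grey a pair that was not tested. The darkest cells are H2-Q6 and H2-Q7 in classical monocyte-like cells, at 4.32 and 3.92 under IFNa, and the dots thin out towards the T cell classes and the columns of Cd1d1 and Mr1.

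Classical monocyte-like cells, the blood-derived precursors of many tissue macrophages, had, after epithelial-like cells, the lowest mean Control levels of H2-Q6 and H2-Q7 of the 13 classes and the largest fitted rise of both under IFNa. H2-Q7 stood at 25.1 and 30.4 CPM in Control 11 and 25, at 326 and 487 in IFNa 18 and 23, and at 463 in the combination. Every treated library was therefore more than 10 times above each Control library. H2-Q6 stood at 8.83 and 13.4 CPM in Control, 144 and 259 under IFNa and 243 in the combination. H2-Q4, a further gene of the Q region, stood at 45.01 and 69.6 CPM in Control, 177 and 282 under IFNa and 303 in the combination. The groups of all 3 genes were apart. The fitted log2 changes of IFNa against Control were 3.92 ± 0.23 (SE; edgeR adjusted p = 0.000179) for H2-Q7, 4.32 ± 0.33 (edgeR adjusted p = 0.000355) for H2-Q6 and 2.06 ± 0.27 (edgeR adjusted p = 0.0038) for H2-Q4. In this class 6 of 8 members were called higher, where 6.07% of all tested genes were. Without Control 11 the H2-Q4 change was 1.73 and no longer passed; the calls of H2-Q6 and H2-Q7 held without any 1 of the 4 libraries compared. The Control monocyte-like cells had more of the markers that gated them: their summed level was 5294 and 5591 CPM in Control, 4201 and 3145 under IFNa and 2813 in the combination. Summed T cell markers in the same cells were 0 to 17.8 CPM and summed NK markers 0.669 to 11.2 CPM. The part of these shifts in the result was not tested.

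The rise was also seen cell by cell. With each cell thinned to 2000 UMIs, H2-Q7 was detected in 5.58% of classical monocyte-like cells of Control 11 (90 of 1612, 95% exact Clopper-Pearson interval 4.51% to 6.82%) and 7.73% of Control 25 (4.48% to 12.2%). The shares were 43.6% in IFNa 18 (40.4% to 46.8%), 56.1% in IFNa 23 (52.1% to 59.9%) and 54.4% in the combination (48.9% to 59.8%). These intervals cover counting error only. The groups did not overlap, and regulatory T cell-like cells, in which the gene is high without treatment, stayed between 79.4% and 87.6% in all 5 libraries. A share so high leaves little room for a rise. By CPM these cells went from 886 and 726 in Control to 1058 and 946 under IFNa, a change that was not called. Without thinning, the mean share in classical monocyte-like cells was 20.6% in Control and 85.6% in IFNa. Epithelial-like cells had the lowest thinned shares of Control 11 and 25, 3.06% and 0 of 37 cells, which allows up to 8.11%; the classical monocyte-like shares of Control lay close to these, so the Control share cannot be told from free RNA. The median depth was 8861 to 14140 UMIs in classical monocyte-like cells and 2967 to 19340 in epithelial-like cells.

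Non-classical monocyte-like and macrophage-like cells showed the same direction from higher Control levels. Non-classical monocyte-like cells, which patrol vessel walls, had H2-Q7 at 110 and 115 CPM in Control, 541 and 646 under IFNa and 637 in the combination. The IFNa change was 2.42 ± 0.22 on the log2 scale (edgeR adjusted p = 2.68e-06). H2-Q6 and H2-Q4 changed by 2.58 ± 0.29 and 1.58 ± 0.25, and 5 of 7 members were called against 2.76% of all genes. Macrophage-like cells, gated on complement C1q and related genes, had H2-Q7 at 134 and 106 CPM in Control, 458 and 583 under IFNa and 913 in the combination, so that the combination library stood highest. The IFNa change was 2.01 ± 0.20 (edgeR adjusted p = 0.000156), with 2.11 ± 0.25 for H2-Q6 and 1.48 ± 0.19 for H2-Q4. Here 5 of 7 members were called against 2.13% of all genes. Summed classical monocyte markers in macrophage-like cells were 2478 and 2968 CPM in Control, 1712 and 1738 under IFNa and 1453 in the combination; their part in the result was not tested.

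Neutrophil-like cells rested on few UMIs but moved alike. Their H2-Q7 was at 102 and 41.8 CPM in Control, 427 and 562 under IFNa and 470 in the combination. The 3 treated libraries all lay above both Control libraries. H2-Q7 changed by 2.50 ± 0.44 (edgeR adjusted p = 0.00454), H2-Q6 by 2.90 ± 0.43 and H2-Q4 by 1.90 ± 0.43, and 4 of 6 members were called against 0.89% of all genes. None of the 4 calls held without Control 11, where the H2-Q7 estimate was 3.34, and without Control 25 it was 2.07 and also not called. Over the monocyte, macrophage and neutrophil-like classes, the 6 H2 genes were called in 20 of 24 tests, with a median log2 change of 1.90. In these classes 0.89% to 6.07% of all genes were called higher.

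Dendritic cells, which take up antigen and prime T cells, split by class. In cDC2-like cells, the conventional dendritic cells that mainly prime CD4 T cells, H2-Q7 was at 75.8 and 106 CPM in Control, 459 and 613 under IFNa and 636 in the combination, a change of 2.60 ± 0.21 for IFNa (edgeR adjusted p = 6.57e-05). H2-Q6 changed by 2.83 ± 0.26 and H2-Q4 by 1.37 ± 0.19 in the same cells, and 5 of 7 members were called against 2.21% of all genes. Plasmacytoid dendritic cell-like (pDC-like) cells, a main natural source of type I interferon, started higher, at 497 and 623 CPM of H2-Q7, and reached 1429 and 1635 under IFNa and 1741 in the combination. These were the highest treated levels of the gene in any tested class. The pDC-like change was 1.42 ± 0.19 (edgeR adjusted p = 0.00226), and 4 of 6 members were called against 0.864% of all genes. Without Control 11 only H2-Q7 of these 4 was still called in pDC-like cells; the H2-Q6 estimate was then 1.32. Without IFNa 23 the H2-Q4 estimate in cDC2-like cells was 1.15 and not called. Mature DC-like cells, gated on Ccr7 and Fscn1, had 668 and 651 CPM in Control, 883 and 930 under IFNa and 969 in the combination. Although both IFNa libraries lay above both Control libraries for all 7 members tested there, 0 of 7 were called, with 4 at an unadjusted p under 0.05, and 0.0543% of all genes were. Over all classes 22.4% of tests had both IFNa libraries above both Control libraries, and the share in mature DC-like cells was not counted. That class held 24 and 10 cells in the Control libraries. Over the 3 dendritic classes the 6 H2 genes were called in 9 of 18 tests, with a median log2 change of 0.86. The share of all genes called higher there ran from 0.0543% to 2.21%.

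Lymphocytes had high H2-Q levels without treatment. B-like cells had H2-Q7 at 253 and 206 CPM in Control, 439 and 456 under IFNa and 479 in the combination, a change of 1.02 ± 0.15 (edgeR adjusted p = 0.0166). H2-Q4 and H2-Q6 changed by 0.64 ± 0.14 and 0.67 ± 0.13 in B-like cells and were not called, and 3 of 8 members were called against 0.998% of all genes. None of the 3 B-like calls held without IFNa 23, where the H2-Q7 estimate was 1.01, and without IFNa 18 it was 1.05 and also not called. NK-like cells, natural killer cells that read class I through inhibitory receptors, had 812 and 809 CPM in Control, 1077 and 1200 under IFNa and 1310 in the combination. That H2-Q7 change of 0.49 ± 0.14 was not called (edgeR adjusted p = 0.278), and 2 of 8 members, H2-T22 and H2-T23, were, against 0.69% of all genes. In CD8 T cell-like cells the H2-Q7 values overlapped, at 575 and 793 CPM in Control, 710 and 857 under IFNa and 837 in the combination. CD4 T cell-like cells went from 560 and 579 CPM to 783 and 868 under IFNa and 788 in the combination. Regulatory T cell-like cells went from 886 and 726 CPM to 1058 and 946, and 1030. The fitted H2-Q7 changes were 0.22 ± 0.25, 0.50 ± 0.24 and 0.31 ± 0.15 in CD8, CD4 and regulatory T cell-like cells, with edgeR adjusted p of 1, 0.967 and 0.707. None of the 8 members was called in these 3 classes, where 0.154%, 0.149% and 0.127% of all genes were called higher. Of the 8 members, 1, 3 and 2 had an unadjusted p under 0.05 there. Over the T and NK-like classes, the 6 H2 genes were called in 2 of 24 tests, with a median log2 change of 0.41. All 24 estimates were above 0. Of all genes, 0.127% to 0.69% were called higher in these classes.

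Epithelial-like cells, gated on Epcam and keratins, had the lowest H2-Q7 levels, at 12.0 and 25.3 CPM in Control, 27.8 and 95.3 under IFNa and 76.6 in the combination. The 2 IFNa libraries lay above Control but differed from each other by more than 3 times. The estimate of 1.68 ± 0.54 was not called (edgeR adjusted p = 0.857), and neither was any of the other 5 H2 genes, whose estimates ran from 0.49 to 1.26, while 4 of the 6 had an unadjusted p under 0.05. In this class 0 genes of 12782 were called, a background of 0%. IFNa 23, the higher library, had a median of 2967 UMIs per epithelial-like cell against 13810 in IFNa 18 and 17640 and 19340 in Control. Its summed T cell markers were 69.2 CPM, against 18.7 to 40.5 in the other libraries, and its summed B cell markers 32.0 CPM against 4.40 to 12.0. Summed NK markers were 49.9 CPM against 2.20 to 24.6, and summed macrophage markers 61.7 CPM against 7.49 to 30.1. Summed neutrophil markers went the other way, at 263 CPM against 527 to 1459, and those of cDC2 and classical monocytes lay within the range of the other libraries. The part of these differences in the epithelial-like values was not tested.

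**Figure D2:**
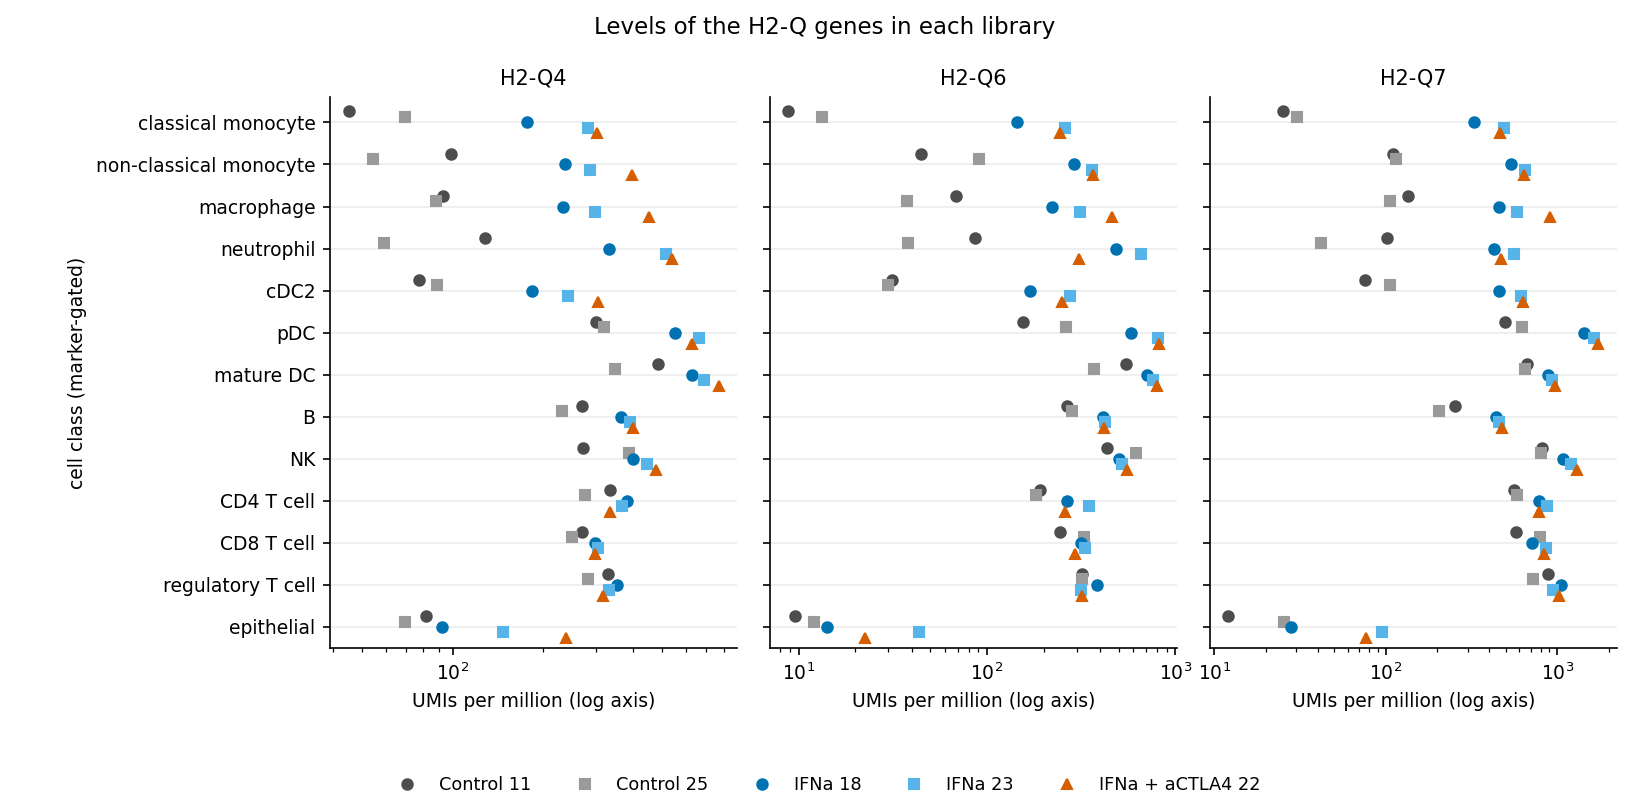
Levels of H2-Q4, H2-Q6 and H2-Q7 as CPM (log axis) in each marker-gated class, 1 point per library. In the 4 topmost classes and in cDC2-like cells the blue and orange points of treated libraries sit to the right of the grey Control points, while in the T cell rows the points lie close together; for H2-Q7 the classical monocyte-like row runs from 25.1 to 487.

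H2-T22 and H2-T23 rose in much the same classes. H2-T22 in classical monocyte-like cells was at 83.5 and 101 CPM in Control, 335 and 407 under IFNa and 548 in the combination. The 3 groups were ordered without overlap. The IFNa change was 2.04 ± 0.17 (edgeR adjusted p = 0.00042), and it was 2.18 ± 0.22 in non-classical monocyte-like, 1.79 ± 0.21 in macrophage-like, 1.68 ± 0.38 in neutrophil-like, 2.11 ± 0.17 in cDC2-like and 1.31 ± 0.20 in pDC-like cells, all called. In B-like cells H2-T22 went from 155 and 129 CPM to 305 and 310, a change of 1.16 ± 0.14 (edgeR adjusted p = 0.0057). In NK-like cells it went from 184 and 203 CPM to 322 and 334, a change of 0.78 ± 0.16 (edgeR adjusted p = 0.0423). Both B-like and NK-like groups were apart. The NK-like call ended without any 1 of the 4 libraries compared, at 0.71 to 0.82, the B-like call without IFNa 23, at 1.17, and the neutrophil-like call without Control 11, Control 25 or IFNa 18, at 1.99, 1.49 and 1.66. In pDC-like cells it ended without Control 11, at 1.11. Among the T cell classes the estimates were 0.50 to 0.78 and none was called.

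H2-T23, the Qa-1 gene, rose by smaller folds than H2-T22 in the monocyte-like and macrophage-like classes, though no test was made of that difference. In classical monocyte-like cells it was at 289 and 324 CPM in Control, 669 and 793 under IFNa and 997 in the combination, and the change of 1.27 ± 0.15 (edgeR adjusted p = 0.00257) was the largest of this gene in any class under IFNa. It was also called in non-classical monocyte-like (1.13 ± 0.21), macrophage-like (1.00 ± 0.17), B-like (0.83 ± 0.13), cDC2-like (0.77 ± 0.16) and NK-like cells (0.73 ± 0.14, edgeR adjusted p = 0.0384). Without IFNa 23 all of these but the classical monocyte-like call ended, with estimates of 0.69 to 0.95 in the other 5 classes. The IFNa libraries lay above the Control libraries in all 13 classes, an order found in 22.4% of the tests of all genes. In CD8 T cell-like cells, for example, H2-T23 was at 411 and 329 CPM in Control, 612 and 762 under IFNa and 697 in the combination. That estimate of 0.89 ± 0.25 was not called (edgeR adjusted p = 0.666).

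H2-M3 had the smallest estimate of the 6 H2 genes in 7 of 13 classes. In classical monocyte-like cells it was at 44.96 and 43.8 CPM in Control, 78.3 and 105 under IFNa and 88.9 in the combination. The groups did not overlap, and the change of 1.06 ± 0.16 was called (edgeR adjusted p = 0.00794). Leaving out Control 11 or Control 25 ended that call, at 1.07 and 1.02. The other 12 estimates were all above 0, from 0.27 in CD8 T cell-like to 1.91 ± 0.79 in neutrophil-like cells, where they rested on 4 to 10 UMIs per library.

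**Figure D3:**
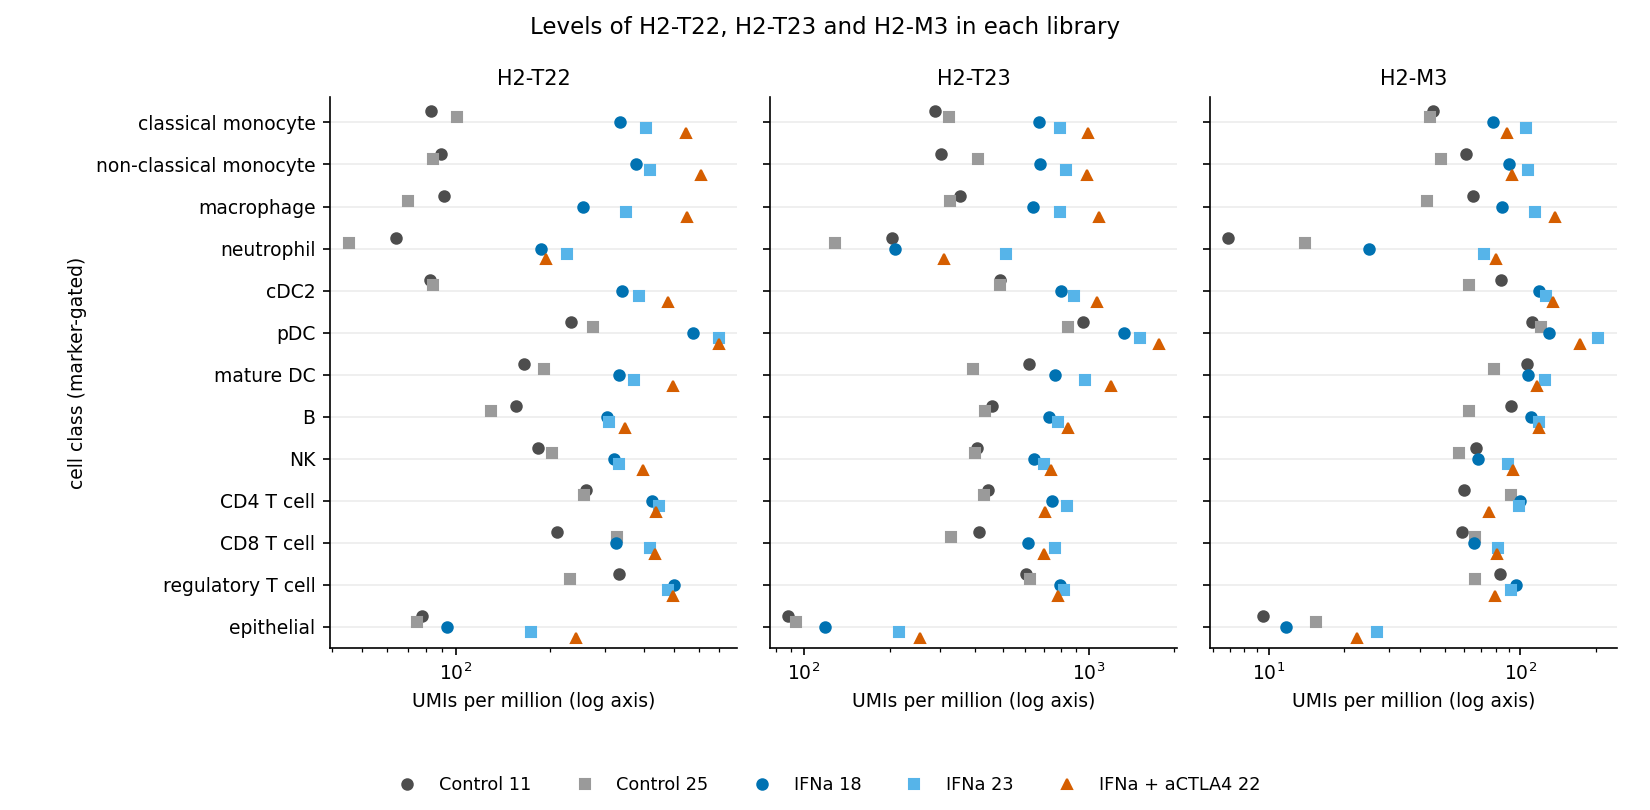
Levels of H2-T22, H2-T23 and H2-M3 as CPM (log axis) in each marker-gated class, 1 point per library. Treated libraries lie to the right of Control for H2-T23 in every row, and the H2-M3 points of most rows are closer together than those of H2-T22; in classical monocyte-like cells H2-M3 runs from 43.8 to 105.

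The order of classes differed between the genes. Without treatment, mean levels were highest in mature DC-like cells for H2-Q4 (416 CPM), in NK-like cells for H2-Q6 (526) and H2-Q7 (810), in regulatory T cell-like cells for H2-T22 (282), and in pDC-like cells for H2-T23 (902) and H2-M3 (116). The 2 Control libraries' ranges of neighbouring classes overlapped for 6 to 10 of the 12 neighbouring pairs of a gene, so most steps in the order were within the spread. Under IFNa, pDC-like cells had the highest mean of H2-Q7 (1532), H2-T22 (636), H2-T23 (1419) and H2-M3 (167), and mature DC-like cells that of H2-Q4 (657) and H2-Q6 (734). Classical monocyte-like cells were last of 13 for H2-Q4 in Control.

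Whether the IFNa change differed between classes was tested for each gene in 1 fit of all classes, with the library as a block and classical monocyte-like cells as the reference. The change was smaller than in classical monocyte-like cells in 29 of 96 pairs of gene and class, and larger in 0, while 0.31% of all tests were called smaller and 0.166% larger. H2-Q6 and H2-Q7 were smaller in 9 classes each, by 2.16 to 4.18 and by 1.87 to 3.63 on the log2 scale. H2-Q4 was smaller in 6 classes, by 1.35 to 1.88, and H2-T22 in 5 classes, by 1.19 to 1.49. For H2-T23, H2-M3, Cd1d1 and Mr1 none of the 12 differences was called, although 3, 3, 2 and 0 had an unadjusted p under 0.05. For Cd1d1 and Mr1 the 12 include classes whose counts were too low for the test within the class. Those pairs also stand in the 96, and some have very wide errors, such as 0.48 ± 4784 (SE) for Mr1 in neutrophil-like cells. The non-classical monocyte-like, cDC2-like and neutrophil-like classes showed 0 called differences for any member. Their H2-Q6 and H2-Q7 differences still ran from -1.70 to -1.31 on the log2 scale. For these 2 genes all 12 classes had an unadjusted p under 0.05, so a missing call is no sign of an equal change. Macrophage-like cells differed for H2-Q6 and H2-Q7, but neither difference was called without Control 11, without IFNa 23 or with classes from clusters, nor that of H2-Q7 without Control 25. Without Control 11 the number of smaller changes fell to 11, and without IFNa 23 to 17. With B-like cells as the reference, the 4 differences called were all larger changes than in B-like cells: in classical monocyte-like cells for H2-Q4, H2-Q6 and H2-Q7, and in neutrophil-like cells for H2-Q6.

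**Figure D4:**
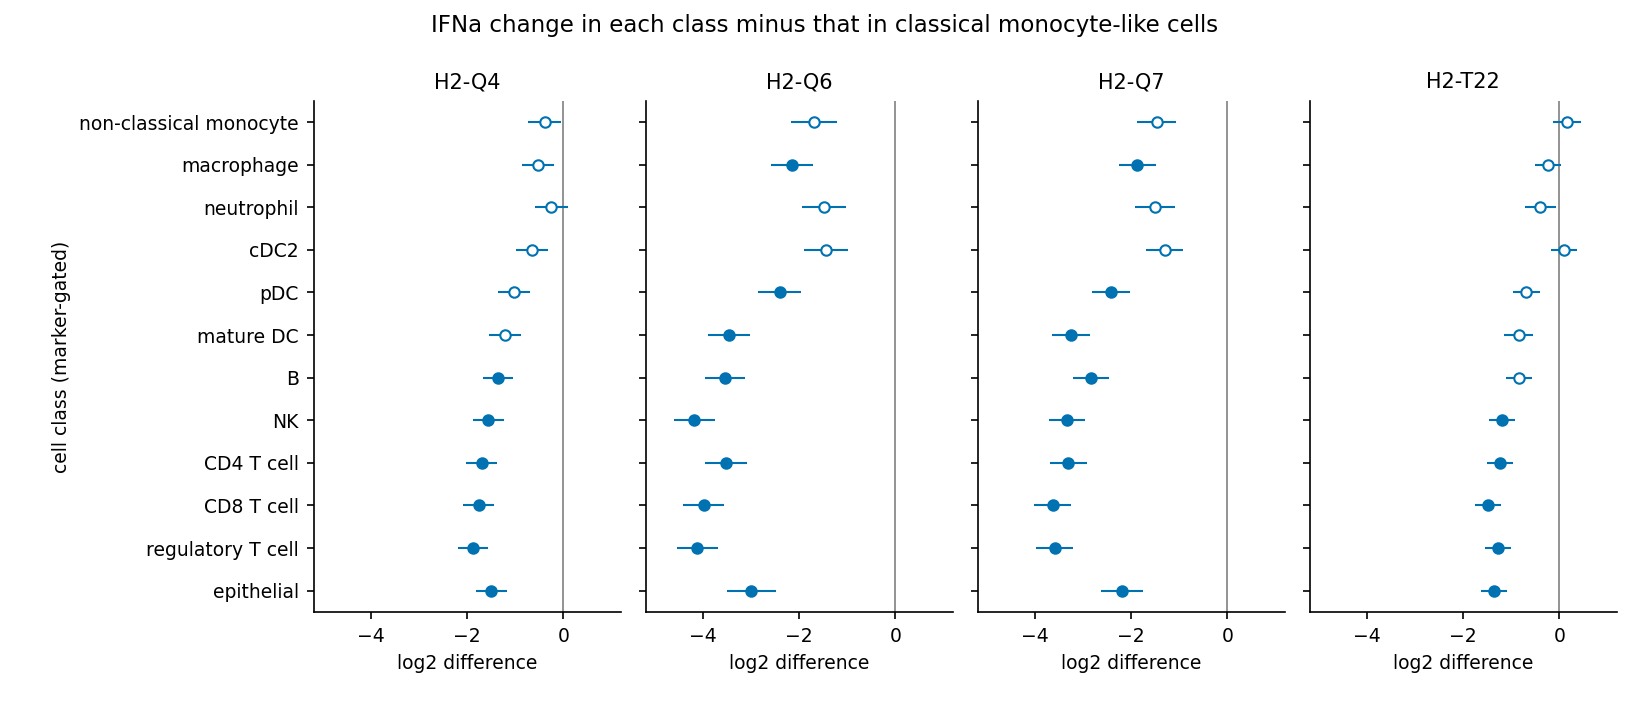
IFNa change in each class minus the change in classical monocyte-like cells, in log2 units with standard errors; filled points have an edgeR adjusted p under 0.05. For H2-Q6 and H2-Q7 the T, NK and B rows sit between -4.18 and -2.84, while the open points of non-classical monocyte-like, cDC2-like and neutrophil-like cells lie nearer to 0.

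The combination was 1 library, so its tests borrow the spread of the other 2 groups and assume that it varies as they do. Against the same Control libraries, 35 of 94 tests were called higher and 0 lower, with 61 at an unadjusted p under 0.05 and a background of 1.9% higher and 0.636% lower. The 2 comparisons share the Control libraries, so their likeness is no independent support. H2-Q4 and H2-Q6 were called in 6 classes, H2-Q7, H2-T22 and H2-T23 in 7, H2-M3 in 2 and Cd1d1 and Mr1 in 0. By class, the calls were 6 of 8 in classical monocyte-like, 5 of 7 in non-classical monocyte-like, 6 of 7 in macrophage-like and 3 of 6 in neutrophil-like cells, against 6.79%, 3.84%, 3.75% and 1.01% of all genes. They were 5 of 7 in cDC2-like, 5 of 6 in pDC-like and 0 of 7 in mature DC-like cells, against 3.68%, 0.98% and 1.09%. B-like cells had 3 of 8 against 1.38%, and NK-like cells 2 of 8 against 0.78%. The CD4, CD8 and regulatory T cell-like classes had 0 of 8 each against 0.0747%, 0.199% and 0.205%, and epithelial-like cells 0 of 6 against 0.0313%. H2-T23 in pDC-like cells (0.95 ± 0.20, edgeR adjusted p = 0.0354) and H2-M3 in macrophage-like cells (1.23 ± 0.27, edgeR adjusted p = 0.0181) passed here and not under IFNa, and that difference between treatments was not called for either.

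The combination set directly against IFNa gave 0 calls of 94 by edgeR and 0 by DESeq2, with 17 at an unadjusted p under 0.05, while 0.304% of all tests were called higher and 0.0819% lower. The members nearest to the threshold were in macrophage-like cells, where 1.4% of all genes were called higher. In this class the combination library stood above both IFNa libraries for all 7 members tested. The share of all genes that did so there was not counted, and the combination is 1 library, so no difference can be read from that order. H2-T22 there was at 256 and 352 CPM under IFNa and 553 in the combination, and H2-T23 at 639 and 795 against 1087. The estimates were 0.92 ± 0.23 for H2-T22 (edgeR adjusted p = 0.0595), 0.87 ± 0.21 for H2-Q7 (0.0569 by the same test), 0.82 ± 0.21 for H2-Q4 (0.0678), 0.86 ± 0.26 for H2-Q6 (0.136) and 0.66 ± 0.20 for H2-T23 (0.134). These calls turned on the samples in the fit: without Control 11 or without Control 25, libraries that are in neither group compared, all 5 passed. The macrophage-like class held 71 cells in the combination library, 32 of them near the gate's limit.

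Cd1d1 had its highest levels of the 13 tested classes in mature DC-like cells. It stood at 106 and 202 CPM there in Control, 264 and 207 under IFNa and 446 in the combination, from 23, 18, 216, 166 and 238 UMIs. The combination library was highest, and the IFNa libraries lay just above the higher Control library. In every other class tested each library was at or below 34.4 CPM: B-like cells were at 28.7 and 30.7 CPM in Control, 24.3 and 28.9 under IFNa and 23.1 in the combination, and epithelial-like cells at 0 to 1.63. The estimates in mature DC-like cells were 0.73 ± 0.36 for IFNa (edgeR adjusted p = 0.715) and 1.72 ± 0.40 for the combination (edgeR adjusted p = 0.0789), neither called. Set against IFNa, the combination was called higher for Cd1d1 in these cells without Control 11 (0.96 ± 0.27, edgeR adjusted p = 0.0179), without Control 25 (0.0195 by the same test) and with only the 2 groups in the fit (0.0198), and not with all libraries. In cDC2-like cells Cd1d1 was at 12.3 and 20.3 CPM in Control, 7.25 and 6.24 under IFNa and 10.7 in the combination. The estimate for IFNa was -1.17 ± 0.42 and was not called (edgeR adjusted p = 0.2499), although both IFNa libraries lay below both Control libraries. Summed T cell markers in mature DC-like cells were 41.4 and 0 CPM in Control, 114 and 74.9 under IFNa and 129 in the combination, and their part in the Cd1d1 values was not tested.

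Per cell, with 2000 UMIs kept, Cd1d1 was detected in 5 of 23 and 2 of 9 mature DC-like cells of Control 11 and 25, in 32.9% (95% exact Clopper-Pearson interval 22.7% to 44.4%) and 34.3% (23.4% to 46.6%) of those of IFNa 18 and 23, and in 45.6% (30.9% to 61.0%) of the combination. The Control intervals, 7.46% to 43.7% and 2.81% to 60.0%, hold the IFNa shares. All these intervals cover counting error only, those of Control rest on few cells, and none is a test between groups. Without thinning the shares were 45.8% (25.6% to 67.2%, 24 cells) and 30% (6.67% to 65.2%, 10 cells) in Control. They were 69.05% (58.0% to 78.7%) and 69.01% (56.9% to 79.5%) under IFNa, with intervals that overlap both Control intervals. B-like cells had Cd1d1 in 4.21% to 5.64% of cells. Epithelial-like cells had it in 0 of 196, 0 of 37, 0 of 189, 2 of 201 and 0 of 22 cells, where 0 of 196 allows a share of up to 1.53%. Median depths were 8400 to 10630 UMIs in mature DC-like and 2967 to 19340 in epithelial-like cells.

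Mr1 was low throughout, between 0 and 16.3 CPM in the 13 tested classes. Its highest class under IFNa was regulatory T cell-like cells, at 9.27 and 10.19 CPM in Control, 16.3 and 13.5 under IFNa and 7.11 in the combination, from 4 to 18 UMIs per library. No order of the groups can be read from so few molecules. In classical monocyte-like cells it was at 3.53 and 5.02 CPM in Control, 2.56 and 3.37 under IFNa and 0.791 in the combination, the last from 3 UMIs. The estimates were -0.44 ± 0.40 and -2.21 ± 0.72 on the log2 scale and were not called (edgeR adjusted p = 0.554 and 0.106).

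**Figure D5:**
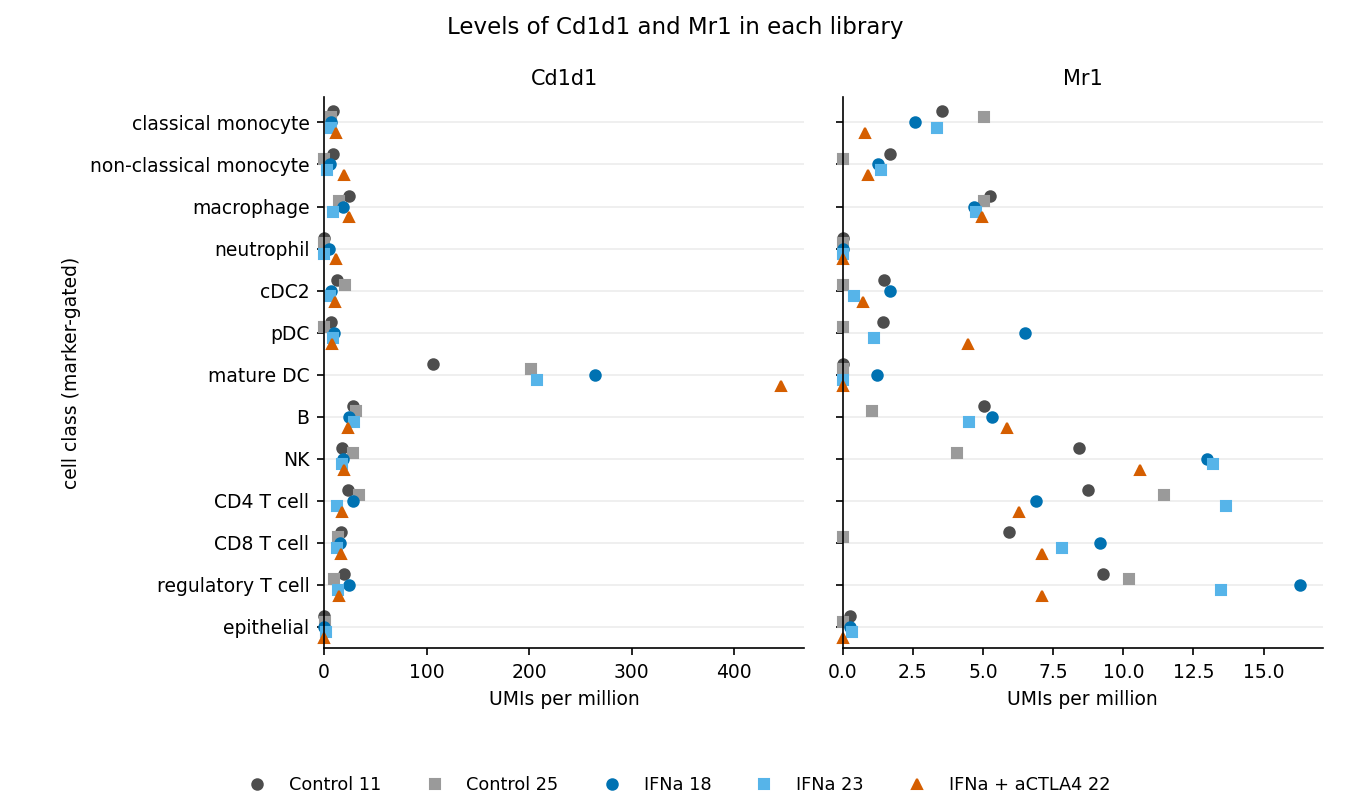
Levels of Cd1d1 and Mr1 as CPM (linear axes from 0) in each marker-gated class, 1 point per library. Cd1d1 stands out in mature DC-like cells, from 106 in Control 11 to 446 in the combination, and all Mr1 points are at or below 16.3.

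The T cells that read these 2 molecules were counted from the paired receptor libraries. An alpha chain of the invariant NKT form, which recognises CD1d, was present in 7 kept cells of Control 11 and 4 of Control 25. It was present in 18 kept cells of IFNa 18, 17 of IFNa 23 and 40 of the combination. A MAIT form, which recognises MR1, was present in 2, 0, 0, 4 and 5 kept cells of the same libraries. Kept cells with both an alpha and a beta chain numbered 623, 101, 611, 890 and 2532. The NKT and MAIT counts did not require a beta chain, so they are not shares of these paired cells. Set against the number of paired cells, the invariant NKT counts of Control and IFNa overlapped.

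H2-Q6 and H2-Q7 are near copies, and the split of reads between them is uncertain. Of the 90-base windows in the last 600 bases of their transcripts, where 3′ reads fall, 21.6% of H2-Q6 and 8.98% of H2-Q7 windows occur exactly in another gene. The matching genes for H2-Q6 were led by H2-Q7, and those for H2-Q7 by H2-Q5, which is not among the genes counted. H2-T22 shared 13.1% of its windows with H2-T10, also not among the genes counted, H2-T23 6.21%, H2-Q4 5.87% and Cd1d1 5.45% (with Cd1d2), and H2-M3 and Mr1 0. The H2-Q6 share of H2-Q6 plus H2-Q7 UMIs varied between libraries by different amounts in different classes. It was 24.1% to 28.7% in CD4, 25.9% to 30.7% in CD8 and 23.8% to 30.7% in regulatory T cell-like cells over the 5 libraries, and 26.0% to 34.7% in classical monocyte-like cells. The range was wider in NK-like (29.7% to 43.3%), non-classical monocyte-like (28.96% to 44.1%), epithelial-like (22.7% to 44.2%) and neutrophil-like cells (39.7% to 53.9%). In NK-like cells the share was 34.8% and 43.3% in Control, 31.7% and 30.4% under IFNa and 29.7% in the combination. B-like cells had 46.7% to 58.0% and mature DC-like cells 36.3% to 45.4%, so that B-like cells did not overlap any T cell class. The share compares classes and not the levels of the 2 genes.

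Classical class I molecules and their assembly genes were called higher as well, mainly in myeloid classes. Of the 15 genes on that list, 11 were called higher in classical monocyte-like, 7 in cDC2-like, 6 in macrophage-like and 5 in non-classical monocyte-like cells under IFNa, with 32 of 195 gene and class tests called higher and 0 lower over all 13 classes, against 1.39% of all tests called higher. The median log2 change of the 15 in classical monocyte-like cells was 0.90, against -0.01 over all genes tested. H2-K1, a classical class I heavy chain, changed by 1.54 ± 0.19 in classical monocyte-like cells (edgeR adjusted p = 0.00288). Nlrc5, the transactivator of class I genes, changed by 1.42 ± 0.20 in cDC2-like cells (edgeR adjusted p = 0.00211), and Tap1, a subunit of the peptide transporter, by 1.30 ± 0.16 in classical monocyte-like cells. The combination gave 55 of 195 higher and 0 lower, against 1.9% of all tests. The 6 interferon response genes given as a reference were Stat2, Irf1, Irf7, Irf9, Isg15 and Ifit3. They were called higher in 39 of 78 tests under IFNa and 46 of 78 in the combination, against 1.39% and 1.9% of all tests. They reached T cell classes, with 2, 3 and 2 of 6 called in CD4, CD8 and regulatory T cell-like cells under IFNa. Isg15, a ubiquitin-like interferon product, was called in 12 classes and Irf7, a transcription factor that sustains interferon production, in 11. Between the combination and IFNa, 4 of 78 were called higher, against 0.304% of all tests. Each of the 4 was Irf1, a transcription factor that responds to interferon-gamma among others.

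Other class I-like genes were mostly too low to test. Of 33 listed, 25 were among the genes counted. Under IFNa, 11 of 65 tests were called higher and 0 lower, against 1.39% of all tests called higher and 0.622% lower. H2-T24, a neighbour of H2-T22 and H2-T23, accounted for 6 of these and the predicted gene Gm7030 for 5. H2-T24 in classical monocyte-like cells was at 21.6 and 33.4 CPM in Control, 108 and 108 under IFNa and 115 in the combination, a change of 2.07 ± 0.20 for IFNa (edgeR adjusted p = 0.000925). Gm7030 was at 9.74 and 9.37 CPM in Control, 41.1 and 46.8 under IFNa and 41.7 in the combination, and shares sequence windows with H2-T23. Procr, the class I-like receptor for protein C, was called for the combination alone, in classical monocyte-like and macrophage-like cells. In macrophage-like cells it had 3, 1, 5, 24 and 44 UMIs in Control 11, Control 25, IFNa 18, IFNa 23 and the combination. The combination also exceeded IFNa for Procr there, by 3.71 ± 0.43 (edgeR adjusted p = 0.000858).

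Genes for lipid and ligand loading of CD1d and MR1 gave 4 of 118 tests higher and 0 lower under IFNa, and 8 of 118 in the combination, where 1.39% and 1.9% of all tests were called higher. Of the 4, 3 were in classical monocyte-like cells, where 6.07% of all genes were called higher. Tapbpl, an editor of MR1 and class I ligands, changed by 0.90 ± 0.17 in classical monocyte-like cells (edgeR adjusted p = 0.016), and Npc2, a lysosomal cholesterol carrier, by 0.73 ± 0.18 in non-classical monocyte-like cells (edgeR adjusted p = 0.0284).

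Receptors for these molecules gave 6 of 98 tests higher and 0 lower under IFNa, and 9 of 98 in the combination, against 1.39% and 1.9% of all tests. Of the 6, 3 were in classical monocyte-like cells, where 6.07% of all genes were called higher. Klrk1, which encodes the activating receptor NKG2D of NK and T cells, accounted for 4 of the 6, all in myeloid classes. It stood at 2.98 and 7.36 CPM in classical monocyte-like cells in Control, 30.5 and 50.2 under IFNa and 92.0 in the combination, and changed by 3.34 ± 0.40 under IFNa (edgeR adjusted p = 0.00233). Summed NK markers in those cells were 4.19 and 0.669 CPM in Control, 6.41 and 11.2 under IFNa and 2.37 in the combination, and summed T cell markers 7.12 and 0, 3.20 and 17.8, and 13.7 CPM. Their part in the Klrk1 values was not tested. Klrd1, which encodes CD94, changed by 2.50 ± 0.64 in the same cells (edgeR adjusted p = 0.0487). In NK-like cells, where Qa-1 is read, Klrd1 was at 736 and 1012 CPM in Control, 689 and 769 under IFNa and 744 in the combination, and its partner Klrc1, which encodes NKG2A, at 554 and 756, 549 and 450, and 637. Neither was called there. Cd8b1, a CD8 chain, was called in mature DC-like cells of the combination, where it had 76 UMIs against 0 and 0 in Control and 9 and 5 in IFNa. T cell markers in those cells were 129 CPM in the combination, as given above.

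The genes whose levels followed each member most closely were sought over the 65 sums of class and library, among 7015 genes with a mean of at least 20 CPM (7016 for Mr1). These correlations are descriptions over sums that share libraries, depth and cells. H2-Q6 was closest to H2-Q7 (Pearson r = 0.946) and H2-Q4 to H2-Q6 (0.908). H2-K1 was the first for H2-T22 (0.901) and the second for H2-Q7 (0.925). H2-T23 and H2-M3 were closest to each other (0.914), ahead of Tapbp (0.863) for H2-T23 and Ifi209 (0.848) for H2-M3. Cd1d1 was closest to Tmem123 (0.791) and Mr1 to Shisa5 (0.792), with no other member among their first 3.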

How the data were processed

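Gene expression was measured in 5 droplet libraries (single cell 3′ v3.1 chemistry) of viable 7AAD-negative cells from digested liver metastases, with 5 paired T cell receptor libraries matched by sample number. The authors deposited UMI count matrices, which are not normalized. The submitters' processing notes name Cell Ranger 7.0.1 and the build mm10. The annotation release of that step is not given in the sources used here. Each receptor library was deposited as a table of contigs with read and UMI counts.

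Cells with fewer than 200 genes or over 15% mitochondrial UMIs were dropped. Doublets were removed by the share of simulated neighbours, 0.8% per 1000 cells. A cell joined a class when at least 3 of its markers (5 for plasma cells) and a share 0.15 above any other class were detected; these limits were set after cell counts and markers were seen, without the members' values. Counts were summed per library and class, filtered by filterByExpr, scaled by TMM and fitted over the 3 groups by edgeR 4.0.16 (R 4.3.3), with Benjamini-Hochberg adjustment over all genes of a class and a threshold of 0.05. Standard errors (SE) were the absolute log2 fold change divided by the root of edgeR's F. DESeq2 1.42.0 and the other settings are given in the closing section; clusters (45, scanpy 1.11.5) served as an alternative. Classes with fewer than 10 cells in a library were not tested there, and classes short of that in any of the 5 libraries, and T cells without a subset marker, were left out. Detection shares were thinned to 2000 UMIs per cell, with exact Clopper-Pearson intervals at 95% and a limit of 3 counts for a count of 0.

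The members and the gene lists were chosen with earlier results of these data known. All 8 members are named in every class; of a list, the first 2 to 4 genes by size of log2 fold change past the threshold are named. Klrd1 and Klrc1 in NK-like cells, Irf1, Irf7 and Isg15, Procr, Cd8b1 and the list of genes for the combination were named after their values were seen. A listed gene is not reported here.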

Additional observations from a re-analysis of the deposited data

Results flagged for a closer look

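The IFNa change of a gene differed between a class and classical monocyte-like cells, by the test of the difference itself (edgeR, all classes in 1 fit with the library as a block), in the following pairs. Each value is the log2 change in the class minus that in classical monocyte-like cells. For H2-Q6 it was -3.55 in B-like, -3.52 in CD4 T cell-like, -3.99 in CD8 T cell-like, -4.13 in regulatory T cell-like, -4.18 in NK-like, -3.46 in mature DC-like, -2.41 in pDC-like, -2.16 in macrophage-like and -3.00 in epithelial-like cells. For H2-Q7 the same classes gave -2.84, -3.31, -3.63, -3.59, -3.34, -3.26, -2.42, -1.87 and -2.19. H2-Q4 gave -1.35 in B-like, -1.70 in CD4, -1.76 in CD8 and -1.88 in regulatory T cell-like, -1.56 in NK-like and -1.50 in epithelial-like cells. H2-T22 gave -1.24 in CD4, -1.49 in CD8 and -1.28 in regulatory T cell-like, -1.19 in NK-like and -1.37 in epithelial-like cells. The H2-Q4 differences were called in 0 classes without Control 11 and in 0 without IFNa 23, and the H2-T22 differences in 1 class in each of these fits. The macrophage-like differences of H2-Q6 and H2-Q7 were not called in either fit.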

How the results depend on the processing

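All 34 IFNa calls and all 35 combination calls of the members kept their direction under every alternative run. Of the 34, 16 also kept their call wherever their class was tested: H2-Q6, H2-Q7 and H2-T22 in cDC2-like cells, these and H2-T23 in classical monocyte-like cells, H2-Q4, H2-Q6, H2-Q7 and H2-T22 in macrophage-like and in non-classical monocyte-like cells, and H2-Q7 in pDC-like cells. Of the 35, 22 did. Leaving out 1 library of the groups in turn gave 24 to 34 calls for IFNa against Control and 34 to 40 for the combination against Control; 23 of the 34 IFNa calls held without Control 11 and 24 without IFNa 23. The stricter gate left 12 calls in the 8 classes it could test for IFNa and 11 in 7 classes for the combination, with 11 IFNa calls held and 4 lost; the other classes had too few cells. DESeq2 held 31 of the 34, and leaving out the combination library, an alternative chosen after seeing the data, held 34. Without a filter on low counts there were 41 calls for IFNa and 45 for the combination.

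The combination against IFNa went from 0 calls to 6 without a filter on low counts, 6 with only the 2 groups in the fit and 1 with classes from clusters, and to 0 to 7 when a library was left out: 7 without Control 11, 6 without Control 25, 1 without IFNa 23. The cause was not tested. The class differences numbered 11 to 24 when a library was left out, and 4 with B-like cells as the reference, which compares other pairs. Thinned to 1000 UMIs and unthinned, the mean share of classical monocyte-like cells with H2-Q7 was 3.66% and 20.6% in Control (6.66% at 2000) and 32.7% and 85.6% in IFNa (49.8% at 2000). The share of mature DC-like cells with Cd1d1 was 11.2% and 37.9% in Control (21.98% at 2000) and 21.2% and 69.0% in IFNa (33.6% at 2000). These shares rise with the UMIs kept, by construction. Without TMM the median of all genes moved by over 0.1 (log2) for IFNa in epithelial-like (0.15) and neutrophil-like cells (0.12), and for the combination in classical monocyte-like (-0.12) and neutrophil-like cells (-0.36); 0 member calls were lost. No paired analysis was possible because the groups share no replicate number.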
